A study of Mus musculus with 12 samples.

Results

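The genes described here are 8 that mark or specify oligodendrocyte precursor cells: Cspg4, Sox10, Pdgfra, Olig1, Olig2, Nkx2-2, Gpr17 and Sox8. They were taken by symbol from the table of read counts per gene and are 8 of its 52634 genes. All 8 passed the filter on low counts that left 17631 genes for testing. RNA was sequenced from dorsal hippocampus of mouse pups at postnatal day 7, in 12 libraries that each pooled tissue from 4 mice. Control pups were labelled SERTfl/fl, the usual notation for a floxed Slc6a4, which encodes the serotonin transporter SERT. SERTPyramid pups are named for pyramidal neurons, and the series title speaks of SERT in those of the CA3 field. Each of the 4 groups, control or SERTPyramid and labelled female or male, had 3 libraries. Neither the driver of the deletion, nor the strain, nor any litter shared between pools is stated in the labels. P-values therefore reflect how far these 12 libraries scatter, and no more.

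Oligodendrocyte precursors are glial cells that divide, migrate through the grey and white matter of the young brain, and give rise to the oligodendrocytes that wrap axons in myelin. PDGF released by neurons and astrocytes keeps them dividing through its receptor PDGFRα, while the basic helix-loop-helix factors OLIG1 and OLIG2 and the SOXE factors SOX8 and SOX10 set and keep their identity. In the rodent hippocampus the first postnatal week is a time of many precursors and little myelin.

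Per library, 18747249 to 25522347 reads were counted, which makes 3 counts, the upper limit that a count of 0 allows, equal to 0.118 to 0.160 CPM (counts scaled to a fixed library total). That limit covers counting error only. Xist and Y-linked transcripts contradicted the sex label of 10 libraries, that is, of every library except control replicate 1 of both labelled sexes. Of the libraries labelled female, control replicate 1 had 20646 counts of Xist and the other 5 had 13 to 527. Of those labelled male, control replicate 1 had 14 and the other 5 had 16794 to 22750. Results are therefore given by labelled sex, and genotype differences of the 8 genes also without the pair of control libraries. Slc6a4 had 0 to 17 counts in the controls and 1 to 12 in SERTPyramid libraries, too few to check the genotype labels. Hippocampal neuron genes were present in every library, among them Neurod6 of pyramidal neurons (295 to 324 CPM) and Prox1 of dentate granule neurons (180 to 256 CPM).

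On the mouse assembly GRCm38 only Olig2 and Olig1 share a chromosome. Cspg4 (ENSMUSG00000032911) spans 56865033 to 56899870 on chromosome 9, and Pdgfra (ENSMUSG00000029231) 75152292 to 75198215 on chromosome 5, both on the plus strand. Olig2 (ENSMUSG00000039830; 91225457 to 91228677) and Olig1 (ENSMUSG00000046160; 91269772 to 91271933) share the plus strand of chromosome 16 with 41.1 kb between them. Sox10 (ENSMUSG00000033006) spans 79154908 to 79165240 on chromosome 15, Sox8 (ENSMUSG00000024176) 25565892 to 25570686 on chromosome 17 and Nkx2-2 (ENSMUSG00000027434) 147177546 to 147194243 on chromosome 2, all on the minus strand.

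Promoter sequences from RefSeq on GRCm38.p6 were used for 5 of the 8 genes, and 3 are shown because the genotype comparisons below turn on these genes or contrast them. Cspg4 had the largest genotype difference of the 8 among labelled females, Olig2 was 1 of the pair of genes that varied together most closely, and Pdgfra had the smallest difference among labelled females. Each is the plus strand, 5′ to 3′, ending before the first annotated exon, and capitals mark CG dinucleotides. The stretches are chr9:56864854-56865032 for Cspg4, chr16:91225300-91225456 for Olig2 and chr5:75152001-75152250 for Pdgfra.
Cspg4: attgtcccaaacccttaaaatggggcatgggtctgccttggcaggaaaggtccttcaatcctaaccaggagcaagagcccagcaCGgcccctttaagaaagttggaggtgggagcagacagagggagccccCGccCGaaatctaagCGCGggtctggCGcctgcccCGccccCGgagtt
Olig2: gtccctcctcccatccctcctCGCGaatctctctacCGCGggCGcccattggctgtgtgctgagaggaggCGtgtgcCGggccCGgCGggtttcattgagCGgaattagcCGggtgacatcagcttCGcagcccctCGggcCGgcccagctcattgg
Pdgfra: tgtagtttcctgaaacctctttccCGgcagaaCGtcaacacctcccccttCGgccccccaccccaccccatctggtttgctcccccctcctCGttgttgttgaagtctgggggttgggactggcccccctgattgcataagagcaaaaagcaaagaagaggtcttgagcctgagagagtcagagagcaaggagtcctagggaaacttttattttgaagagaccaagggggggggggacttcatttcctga
The stretch of Olig2 holds 14 CG dinucleotides in 157 bases, that of Cspg4 8 in 179 and that of Pdgfra 4 in 250. Over the full 250 bases before the start, Olig2 had 66.8% G and C and 22 CG dinucleotides, Cspg4 60.4% and 12, and Pdgfra 54.4% and 4. The medians over 32851 mouse promoter windows of that length were 52.4% and 6 CG dinucleotides. Of 5 short motifs searched on both strands of these 250 bases, only Olig2 among the 5 genes used held any. It had CCAAT at 2 places, 203 to 199 and 98 to 94 bases before the start (33.8% of all windows hold the motif). Both places read ATTGG, its reverse complement, on the strand shown. Olig2 also held the SOX-type core ACAATG once (10.7% of windows) and TATAAA once (12.4%). The CCAAT places lie in the stretch shown. The ACAATG and TATAAA matches lie between it and the RefSeq start, in bases not shown. Those bases come after the start of Olig2 in the GENCODE annotation (91225457). ACAAAG and CAGCTG, held by 16.5% and 13.0% of windows, were in none of the 5. A match of letters is a description and not a binding site.

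In levels per length the genes covered a wide range, with Olig1 far above the rest and Nkx2-2 far below. Counts were scaled between libraries by TMM (trimmed mean of M-values), written as CPM, and divided by the kilobases of merged exon. Olig1 averaged 109 ± 5.61 CPM per kb (SD, n = 12 libraries), a level 72.2 times that of Nkx2-2 at 1.51 ± 0.205. Between them lay Olig2 at 26.0 ± 2.25, Gpr17 at 21.2 ± 3.06, Sox10 at 20.1 ± 1.43, Pdgfra at 18.7 ± 0.866 and Sox8 at 17.7 ± 1.36 CPM per kb. Olig2 exceeded Gpr17 in 12 of 12 libraries, although their ranges overlapped, and its lowest value (23.7) lay above the highest of Sox10 (21.9), Pdgfra (20.3) and Sox8 (19.5). From Gpr17 to Sox8 the ranges of neighbours overlapped, and the order held in 8 to 10 of 12 libraries. Cspg4 stood apart at 5.92 ± 0.499 CPM per kb, below every library's value for Sox8 and above every library's value for Nkx2-2. Dividing by the longest transcript in place of merged exons moved Pdgfra to second place and left Olig1, Sox8, Cspg4 and Nkx2-2 in their places.

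**Figure D1:**
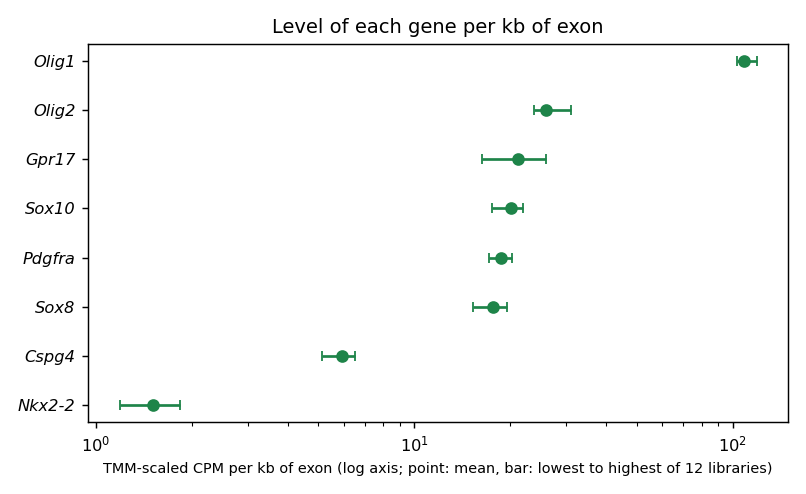
Level of each of the 8 genes in TMM-scaled CPM per kb of merged exon, on a log axis, with the mean (point) and the lowest to highest of 12 libraries (bar). Olig1 (mean 109), Cspg4 (5.92) and Nkx2-2 (1.51) have ranges apart from their neighbours, and the other 5 overlap one another in sequence.

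Gpr17 and Nkx2-2 varied most between libraries of a group. Gpr17 encodes a receptor that appears for a limited time in precursors on their way to differentiation, and its within-group SD on the log2 scale was 0.215. That of Nkx2-2, a homeodomain factor of the lineage, was 0.202 on 64 to 134 counts per library. The other 6 genes had SDs of 0.062 (Olig1) to 0.109 (Sox8), below the median of 0.117 over the 17631 genes. In bulk tissue, fewer cells of a type and less RNA per cell cannot be told apart, for any of these genes.

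The surface proteins were taken first. Cspg4 encodes NG2, the proteoglycan used to identify precursors, and was higher in SERTPyramid than in control libraries labelled female. Control libraries labelled female had 64.7, 67.4 and 66.8 CPM, and SERTPyramid libraries 78.0, 76.1 and 77.1. The groups did not overlap, and the values within each lay close together. Among labelled males, controls had 61.5, 74.6 and 71.8 CPM and SERTPyramid libraries 71.5, 75.9 and 62.0. These groups overlapped, and each genotype held 1 library near the bottom of the range.

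The fitted log2 fold change of Cspg4, SERTPyramid over control, was 0.22 ± 0.07 (SE; 95% interval 0.07 to 0.37) among labelled females, a fold of 1.16. In the edgeR fit to all 12 libraries its adjusted p over all genes tested was 0.53, and the unadjusted p was 0.00682. A separate fit of those 6 libraries gave 0.22 again, with an SE of 0.04 and an adjusted p of 0.00332. The spread between libraries was smaller in that fit, with a common biological coefficient of variation of 0.0508, against 0.0668 over 12 libraries and 0.0785 over the 6 labelled-male libraries. Among labelled males the change was 0.01 ± 0.07 (95% interval -0.14 to 0.16). The difference between the labelled sexes was 0.21 ± 0.10 (edgeR adjusted p = 0.999), so none was shown between the label groups. With the sex label contradicted in 10 libraries, that contrast cannot test a difference between sexes. Without control replicate 1 of both labelled sexes the 12-library values were 0.20 ± 0.07 in libraries labelled female and -0.07 ± 0.07 in those labelled male.

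Pdgfra, the receptor for PDGF, did not share that difference. Among labelled females the controls had 185, 191 and 195 CPM and SERTPyramid libraries 189, 187 and 188. Among labelled males the controls had 173, 192 and 203 CPM and SERTPyramid libraries 184, 191 and 173. In both cases the SERTPyramid values lay within the control range or at its edge. Its log2 fold change was -0.02 ± 0.06 (95% interval -0.14 to 0.10) among labelled females and -0.05 ± 0.06 (-0.17 to 0.06) among labelled males. Without control replicate 1 of both labelled sexes these were -0.04 ± 0.05 and -0.11 ± 0.05 (edgeR adjusted p = 0.798).

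Gpr17 (ENSMUSG00000052229; chromosome 18, 31942997 to 31949636, minus strand) had 122, 84.5 and 94.2 CPM in controls labelled female and 107, 111 and 102 CPM in SERTPyramid libraries labelled female. Control replicate 1, the one with abundant Xist in its group, was the highest of the 6, above all 3 SERTPyramid libraries. Controls labelled male had 89.5, 115 and 133 CPM and SERTPyramid libraries 135, 117 and 111, which overlapped across most of the range. The log2 fold changes were 0.09 ± 0.17 and 0.10 ± 0.17. Without control replicate 1 of both labelled sexes they were 0.26 ± 0.09 (edgeR adjusted p = 0.756) for the former and -0.04 ± 0.09 for the latter. Lims2, on the opposite strand and overlapping Gpr17 in exons, had 193 to 329 counts per library against 1680 to 3191 for Gpr17, and without strand information reads from the overlap cannot be told apart.

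Among the transcription factors, Sox10 had the largest difference in libraries labelled female. SOX10 is needed in the lineage from precursors to myelinating cells. Controls labelled female had 59.8, 53.5 and 53.5 CPM, and SERTPyramid libraries labelled female had 64.3, 63.6 and 62.5. All 3 SERTPyramid values were above all 3 controls, and control replicate 1 was the nearest to them. Controls labelled male had 58.8, 61.0 and 66.7 CPM and SERTPyramid libraries 66.5, 64.0 and 61.8, which overlapped.

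For Sox10 the log2 fold change among labelled females was 0.19 ± 0.06 (95% interval 0.07 to 0.31; edgeR adjusted p = 0.53 in the 12-library fit). The 6 labelled-female libraries alone gave 0.19 ± 0.05 with an edgeR adjusted p of 0.0269. That call was less steady than the one for Cspg4. Leaving out each of the 6 libraries in turn from the edgeR fit, Cspg4 kept an adjusted p of 0.00467 to 0.0276, while that of Sox10 ran from 0.0113 to 0.167 and stayed under 0.05 in 2 of 6 fits. DESeq2 on the same 6 libraries gave Cspg4 an adjusted p of 0.00564 and Sox10 0.0633. Among labelled males the change of Sox10 was 0.04 ± 0.06 (95% interval -0.08 to 0.16), and the difference between labelled sexes was 0.15 ± 0.08 (edgeR adjusted p = 0.999). Without control replicate 1 of both labelled sexes it was 0.25 ± 0.06 among labelled females and 0.01 ± 0.06 among labelled males.

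Sox8, the close relative of Sox10, had 55.9, 47.8 and 53.1 CPM in controls labelled female and 50.2, 58.8 and 55.6 in the SERTPyramid libraries. Controls labelled male had 49.7, 55.3 and 60.1 CPM, against 58.3, 57.4 and 60.8. Groups overlapped in both labelled sexes, and the log2 fold changes were 0.07 ± 0.07 and 0.09 ± 0.07, or 0.12 ± 0.07 and 0.03 ± 0.07 without the same pair of controls. Reads from 2810468N07Rik, an annotated antisense gene with 203 to 306 counts (19.8% of those of Sox8), cannot be told apart where it overlaps Sox8.

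Olig2, which specifies the lineage, had 60.0, 62.2 and 60.0 CPM in controls labelled female and 62.6, 65 and 63.6 in SERTPyramid libraries. These did not overlap, yet the highest control and the lowest SERTPyramid library lay side by side, and the log2 fold change was 0.07 ± 0.06 (edgeR adjusted p = 0.815). Controls labelled male had 64.0, 61.7 and 72.2 CPM and SERTPyramid libraries 67.4, 71.7 and 78.4. The control at 72.2 lay above 2 of the 3 SERTPyramid libraries, and the log2 fold change was 0.14 ± 0.06 (95% interval 0.01 to 0.26; edgeR adjusted p = 0.999). Without the pair of control libraries the changes of Olig2 were 0.06 ± 0.07 and 0.12 ± 0.07.

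Olig1, the partner gene of Olig2, had 227, 227 and 222 CPM in controls labelled female and 224, 236 and 232 in SERTPyramid libraries. Controls labelled male had 236, 225 and 252 CPM and SERTPyramid libraries 231, 256 and 253. Genotypes overlapped in both labelled sexes, with log2 fold changes of 0.03 ± 0.05 (95% interval -0.08 to 0.14) and 0.05 ± 0.05 (-0.05 to 0.16), and 0.04 ± 0.06 and 0.05 ± 0.06 without the pair of controls.

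Nkx2-2 was the only transcription factor of the 5 whose difference was below 0 among labelled males, at -0.22 ± 0.15 (95% interval -0.55 to 0.10), against 0.10 ± 0.15 among labelled females. Controls labelled female had 4.46, 4.07 and 4.23 CPM and SERTPyramid libraries 4.42, 5.23 and 4.10. Controls labelled male had 3.41, 5.28 and 5.08 CPM and SERTPyramid libraries 4.03, 3.68 and 4.22. Control replicate 1 labelled male was the lowest of the 12, and without it and its labelled-female counterpart the change among labelled males was -0.38 ± 0.14 (edgeR adjusted p = 0.798) and that among labelled females 0.14 ± 0.15. The difference between labelled sexes was 0.33 ± 0.22 (95% interval -0.13 to 0.78).

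**Figure D2:**
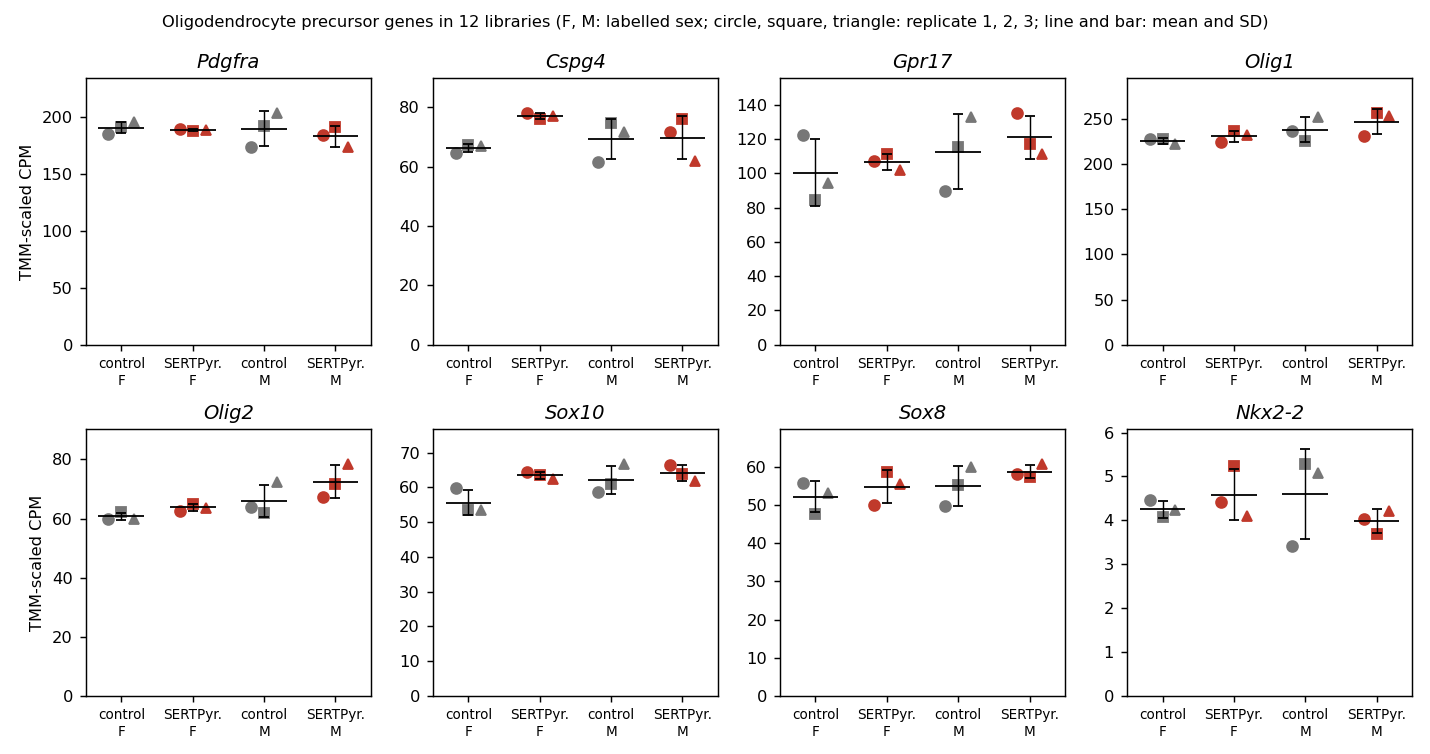
TMM-scaled CPM of each gene in each library, by genotype and labelled sex (grey, control; red, SERTPyramid; circle, square and triangle, replicates 1, 2 and 3), with mean and SD over 3 libraries. Cspg4, Sox10 and Olig2 are the panels in which SERTPyramid libraries labelled female all lie above the controls, and on the labelled-male side of every panel the genotypes overlap.

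As a set, none of the 8 genes passed an adjusted p of 0.05 in the 12-library edgeR fit in any of 4 contrasts: genotype among labelled females, among labelled males, their difference and their mean. None of the 17631 genes did either (0%). At an unadjusted p under 0.05 the count was 2 of 8 among labelled females (8.04% of all genes), 1 of 8 among labelled males (3.16%), 0 of 8 for the difference (4.45%) and 3 of 8 for the mean (6.49%). The 3 were Sox10 (0.12 ± 0.04), Cspg4 (0.11 ± 0.05) and Olig2 (0.10 ± 0.04), each with an edgeR adjusted p of 0.756. Without the pair of controls these means were 0.13 ± 0.04, 0.07 ± 0.05 and 0.09 ± 0.05. With only the 6 libraries labelled female in the fit, Cspg4 and Sox10 were 2 of 415 genes called (2.43% of 17108), of which 282 were higher in SERTPyramid (1.65%). In the fit of the 6 labelled-male libraries 0 of the 8 were called, and 0 of 17049 genes (0%; 317 at an unadjusted p under 0.05).

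All SERTPyramid libraries exceeded all controls in 3 of 8 genes among labelled females, where 9.50% of all genes did so, and in 0 of 8 among labelled males, where 3.67% did. None of the 8 lay entirely lower in either (9.38% and 3.26% of genes). Over all 12 libraries the genotypes overlapped for every one of the 8, and were apart in the higher direction for 0.113% of genes and in the lower for 0.0737%. The median log2 fold change of the 8 was 0.08 among labelled females, with 7 of 8 above 0, and 0.05 among labelled males, with 6 of 8 above 0. Over all genes tested both medians were 0.00, with 49.9% and 50.5% of genes above 0.

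**Figure D3:**
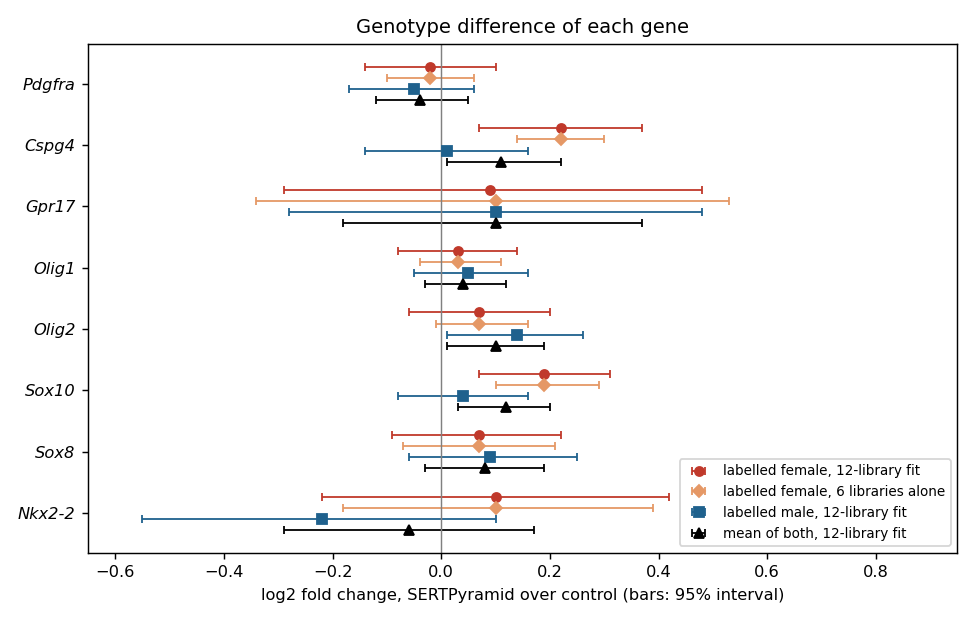
Log2 fold change of each gene, SERTPyramid over control, with its 95% interval, among labelled females in the 12-library fit (red circle) and in the 6 libraries alone (orange diamond), among labelled males (blue square) and averaged (black triangle). The intervals of Cspg4 (0.07 to 0.37) and Sox10 (0.07 to 0.31) lie above 0 among labelled females, and those of Gpr17 and Nkx2-2 are the widest.

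Genes of the precursor stage outside the 8 were examined from a list of 15. Of these 0 passed in either labelled sex, 5 of 15 were above 0 in each, and the medians were -0.04 and -0.05. Matn4, a matrix protein, had 0.18 ± 0.07 among labelled females (20.9 CPM in controls and 23.6 in SERTPyramid). Ptprz1, a receptor phosphatase, had -0.06 ± 0.06 among labelled females and -0.10 ± 0.06 among labelled males, and C1ql1 had 0.23 ± 0.08 among labelled males.

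Later stages of the lineage were also examined. Of 10 genes of committed precursors and newly formed oligodendrocytes 0 passed. Their median was 0.04 among labelled females and 0.14 among labelled males, with 6 and 9 of 10 above 0. Bcas1, a marker of newly forming oligodendrocytes, had 0.15 ± 0.13 and 0.26 ± 0.13. Myrf, which switches on myelin genes, had 0.22 ± 0.17 among labelled males, and Zfp488 0.22 ± 0.13. Of 13 myelinating genes tested 0 passed, with a median of -0.07 (5 of 13 above 0) among labelled females and 0.21 (11 of 13) among labelled males. Mag, a glycoprotein of the inner myelin sheath, had 0.58 ± 0.22 among labelled males, from 3.72 ± 0.424 CPM (SD, n = 3) in controls to 5.52 ± 1.86 in SERTPyramid. Summed over the list, myelinating genes reached 183 to 280 CPM per library, against 733 to 854 CPM for the 8 precursor genes.

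None of the ligands, receptors or other regulators of the lineage passed in either labelled sex. The 10 ligands had medians of -0.02 and -0.03, and Pdgfa, whose product binds PDGFRα, had -0.08 ± 0.06 among labelled males (41.9 CPM in controls). The 10 receptors and inhibitors had medians of -0.03 in both, with Lpar1, a lysophosphatidic acid receptor, at 0.12 ± 0.10 and 0.10 ± 0.10 and Lingo1, an inhibitor of differentiation, at -0.06 ± 0.06 and -0.04 ± 0.06. The 9 regulators tested had medians of -0.03 and 0.01, with 4 and 7 of 9 above 0. Sox5, a SOXD factor, had -0.11 ± 0.06 and -0.15 ± 0.06. Among labelled females Zeb2 had -0.14 ± 0.06 and Hes1 0.16 ± 0.11. The 8 genes of dividing cells had a median of -0.13 among labelled females, with 3 of 8 above 0 and 0 passing. Mki67 had -0.19 ± 0.08 and Cdk1 -0.29 ± 0.11 there. Among labelled males the median was 0.01, with 4 of 8 above 0.

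Cspg4 is also made by pericytes of blood vessels, and Pdgfra by fibroblasts of the meninges, so the markers of those cells are set beside them. Of 10 pericyte genes 0 passed and 6 of 10 were above 0 among labelled females (median 0.09). Their summed level was 357 to 378 CPM in controls and 361 to 380 CPM in SERTPyramid. Notch3 had 0.15 ± 0.06, Vtn 0.14 ± 0.06 and Rgs5 -0.12 ± 0.06. Of 7 fibroblast genes tested 0 passed and 4 were above 0 (median 0.21), with Col1a1 at 0.24 ± 0.13 and Ogn at -0.58 ± 0.31. The summed fibroblast level was 200 to 234 CPM in controls and 227 to 278 in SERTPyramid. No pericyte or fibroblast gene listed was at 0 in any group, and their part in the values of Cspg4 was not tested.

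Markers of other cells also differed between libraries. Of 10 astrocyte genes, which had a median of 0.03 in both labelled sexes, 0 passed in the 12-library fit, with Gfap at 0.16 ± 0.05 and Fgfr3 at 0.19 ± 0.05 among labelled females. In the fit of the 6 libraries labelled female, in which Cspg4 and Sox10 were called, 6 of 10 astrocyte genes were above 0. Fgfr3 (edgeR adjusted p = 0.0231) and Gfap (0.024) were called higher too. Slc1a2 had -0.12 ± 0.05 (edgeR adjusted p = 0.25) and Aqp4 -0.10 ± 0.04 (0.287) in that fit. The part of astrocytes in the values of Cspg4 and Sox10 was not tested. Genes of the choroid plexus, the secretory tissue of the ventricles, had a median of -0.42 among labelled females. Their sum ran from 978 to 1310 CPM over the controls labelled female and from 30.3 to 1276 CPM over the 3 SERTPyramid libraries. The part of choroid plexus in the values of the precursor genes was not tested. Microglial genes had medians of -0.03 and 0.09. The 10 hippocampal neuron genes had medians of -0.03 and 0.03, and 0 passed. Among them Prox1 had -0.25 ± 0.08 among labelled females (229 ± 26.2 CPM in controls and 192 ± 9.12 in SERTPyramid, SD, n = 3), and Calb1, a calcium-binding protein of dentate granule neurons and others, had -0.17 ± 0.06 there and 0.14 ± 0.06 among labelled males.

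**Figure D4:**
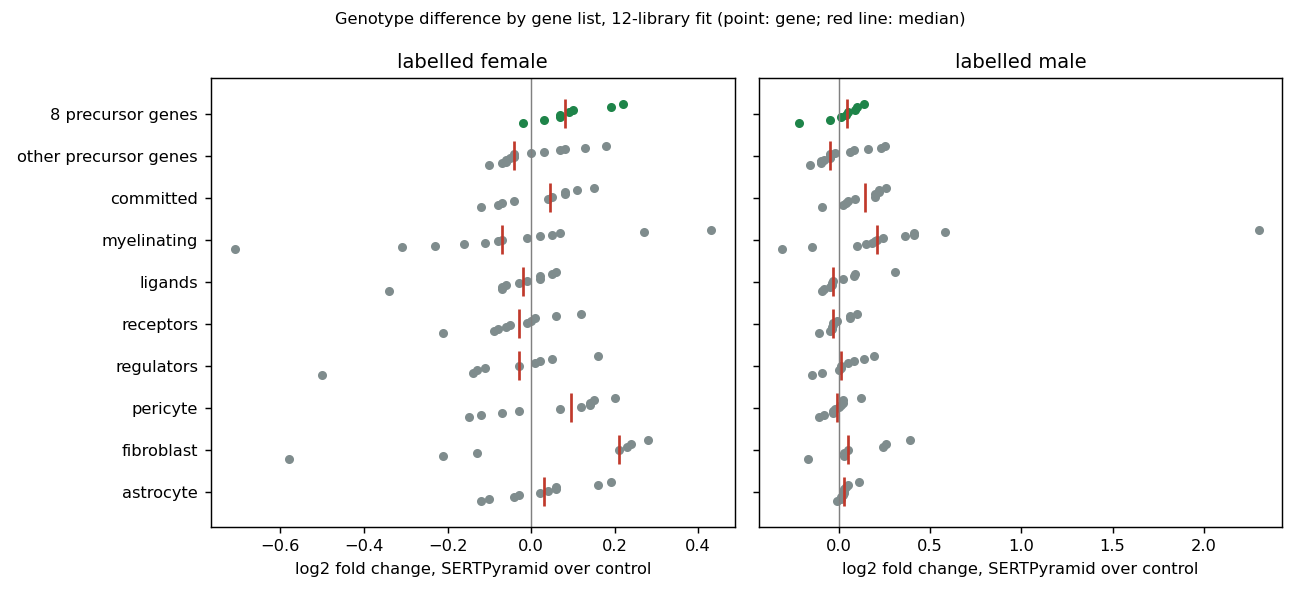
Log2 fold change, SERTPyramid over control, of each gene (point) in the 12-library fit by list, with the list median (red line), among labelled females (left) and labelled males (right). The 8 precursor genes have medians of 0.08 and 0.05, the other precursor genes -0.04 and -0.05, and the myelinating genes -0.07 and 0.21, with Mobp at 2.30 on under 1 CPM in controls.

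The 8 genes were then compared with each other across libraries, by Pearson's r of log2 CPM (prior count 2). Of 28 pairs, 22 had r above 0 (median 0.40), and 3 passed an adjusted p of 0.05 by permutation. Olig1 and Olig2 were the closest, with r = 0.91 and Spearman's rho = 0.86 (permutation p = 0.00023, adjusted 0.00644, two-sided, n = 12 libraries). Their r was 0.89 without the 2 libraries farthest from the median, 0.97 in the 6 control libraries and 0.87 in the 6 SERTPyramid libraries. Both genes were high in control replicate 3 and SERTPyramid replicates 2 and 3 labelled male.

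Sox10 and Gpr17 had r = 0.81 and rho = 0.69 (permutation p = 0.00149, adjusted 0.0205), with 0.68 without the 2 farthest libraries, 0.85 in controls and 0.81 in SERTPyramid. Gpr17 and Sox8 had r = 0.79 and rho = 0.71 (permutation p = 0.0022, adjusted 0.0205), which fell to 0.55 without the 2 farthest libraries and was 0.96 in controls and 0.36 in SERTPyramid. Cspg4 and Pdgfra had r = 0.56 (permutation p = 0.057, adjusted 0.228), which was -0.07 without the 2 farthest libraries. Groups differ in mean, so the same values were taken as deviations from group means and permuted only within groups. That leaves fewer arrangements than shuffling all 12 libraries, so its p-values are not on a par with those above. None of the 28 pairs then passed, with r = 0.94 for Sox10 and Gpr17 (adjusted permutation p = 0.0857), 0.88 for Cspg4 and Pdgfra (0.26) and 0.85 for Olig1 and Olig2 (0.26). Without control replicate 1 of both labelled sexes 2 pairs passed, and leaving out 1 library at a time 1 to 4 did, with 1 left when the omitted library was control replicate 2 labelled female, or replicate 3 of the controls labelled male.

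**Figure D5:**
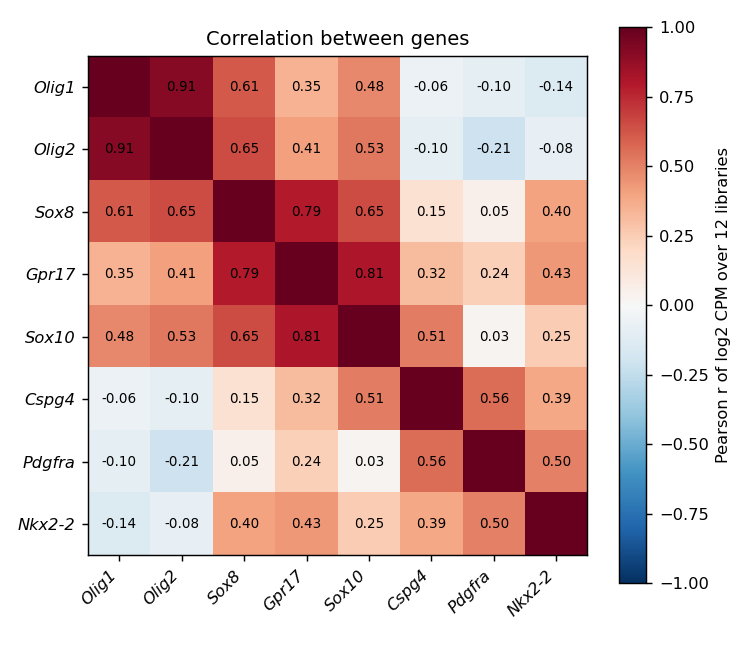
Pearson's r of log2 CPM over 12 libraries for each pair of the 8 genes, on a colour scale from -1 to 1. Olig1 with Olig2 (0.91), Sox10 with Gpr17 (0.81) and Gpr17 with Sox8 (0.79) are the highest, and Pdgfra with Olig2 (-0.21) is the lowest.

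A mean of the 8 genes, each standardised over the 12 libraries, was lowest in control replicate 1 labelled male (-1.07) and highest in control replicate 3 labelled male (1.18), so controls of 1 labelled sex held both ends. Of 12762 other genes with a mean log2 CPM of at least 1, the 10 most like that mean were Paqr7 (r = 0.96), Rngtt (0.89), Bex4 (0.88), Phrf1, Bbs1 (0.87 each), Sos2 (0.85), Caskin2 (0.83), Tnfaip8l1, Scmh1 and Hspbap1 (0.82 each). These values of r describe the 12 libraries and carry no test, and all genes of a library share its depth and tissue composition. Of the other precursor genes, Lnx1 had r = 0.62, and 13 more ran from -0.17 to 0.30.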

How the data were processed

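The values are read counts per Ensembl gene as deposited, 1 column per library, with 0 columns left unmapped. Per the labels' protocols, Trizol and a cleanup column were used for RNA, and an unstranded kit (TruSeq RNA v2) was used on 250 ng of it. The genome build is mm10 per the submitters' processing notes. The aligner, annotation and settings of the counting are not stated there. Coordinates and exon lengths came from GENCODE M21 on GRCm38, and promoters from RefSeq.

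In edgeR 4.0.16 (R 4.3.3), filterByExpr chose the genes, TMM scaled the 12 libraries in 4 groups, and robust quasi-likelihood F tests gave p, adjusted by Benjamini-Hochberg over all genes tested (threshold 0.05). Each SE was computed as |log2 fold change| divided by the root of F. Libraries of a group differed by more than sampling noise (chi-square per degree of freedom 2.52 to 13.82), so each was counted once. Pairs of genes were tested by 100000 permutations of the libraries, or within groups for deviations from group means, adjusted over 28 pairs. The test was checked on simulated data.

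The genes and all lists were chosen with earlier results of these data known. All 8 genes were named in every contrast, up to 4 genes with the smallest p of each other list, and the 10 genes most like the mean of the 8, passing over predicted gene models. The text prints only some of the genes that this rule takes, and some are not reported here. Alternatives were DESeq2 1.42.0, limma voom (3.58.1), RLE scaling, other filters, a replicate block, the compared groups alone, a Y-linked covariate, a threshold of 0.1, genotype with no term for labelled sex, and leaving out libraries. Leaving out each library from the compared groups alone, and other tools on those groups, were added after the values were seen.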

Additional observations from a re-analysis of the deposited data

How the results depend on the processing

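In the 12-library fit 0 of the 8 genes were called under DESeq2, RLE scaling, limma voom, a stricter filter, a threshold of 0.1, the Y-linked covariate or leaving out any library, in any contrast, and only the fit with no low-count filter called 1, Cspg4 among labelled females. The fits of the 6 labelled-female libraries alone called 2 of the 8 with edgeR, 1 with DESeq2, 2 with limma voom and 2 with the replicate block, and 1 to 3 on leaving out each library. Gpr17 was the third, called only without control replicate 1 (log2 fold change 0.26, adjusted p = 0.0133). Over all genes these fits called 415, 336, 494 and 689, and, in turn without control replicates 1, 2 and 3 and SERTPyramid replicates 1, 2 and 3, 251, 158, 280, 464, 136 and 400. Deviations of same-numbered libraries correlated at -0.23 to 0.23, and only 2 of 18 pairs exceeded 0.1. With the replicate block the common biological coefficient of variation went from 0.0508 to 0.045 in the labelled-female fit. It went from 0.0785 to 0.0834 in the labelled-male fit and from 0.0668 to 0.066 over 12 libraries. Whether libraries of the same number share a batch or litter cannot be settled from these values. In the 12-library fit the replicate block called 0 genes in each contrast, and it changed no call of the 8 there or in the labelled-female fit.

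In the 12-library fit, calls over all genes among labelled females were 0, against 1 with DESeq2, 103 with no filter and 0 to 2 on leaving out a library, the 2 without SERTPyramid replicate 2 labelled male. Among labelled males no filter gave 5. The difference between labelled sexes gave 1 with DESeq2 and 14 with no filter. The mean of both gave 66 with no filter and 0 to 144 on leaving out a library, the 144 without SERTPyramid replicate 2 labelled male. Pairs of genes called were 3, against 0 as deviations from group means, permuted within groups, and 1 to 4 on leaving out a library. The cause of these differences was not tested.

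Direction held for all 8 genes in the mean of both labelled sexes. Among labelled females it reversed for Pdgfra with the Y-linked covariate (0.0013) and on leaving out libraries (-0.04 to 0.0001), and for Gpr17 on leaving out libraries (-0.01 to 0.26). Among labelled males Cspg4 reversed with limma voom (-0.04), the covariate (-0.02), without control replicate 1 of both labelled sexes (-0.07) and on leaving out libraries (-0.07 to 0.09). Gpr17 reversed there with the covariate (-0.02), without both control libraries (-0.04) and on leaving out libraries (-0.04 to 0.24), and Pdgfra reached 0.0040 on leaving out a library, from a lowest value of -0.11. For the difference between labelled sexes, Gpr17 (0.01 with the replicate block, 0.12 with voom, 0.30 without both control libraries, 0.29 with the covariate) and Sox8 (0.03, 0.09 and 0.09 with the last 3) turned positive. Leaving out a library gave -0.14 to 0.16 for Gpr17, -0.09 to 0.04 for Sox8, -0.07 to 0.01 for Olig1 and -0.02 to 0.09 for Pdgfra. The 12-library intervals of these genes include 0. Nkx2-2, with 64 to 134 counts per library, has the largest counting error of the 8.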
